A study of Danio rerio with 6 samples.

Results

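The genes described here belong to the integrated stress response and the unfolded protein response, and were taken by name from a list of 48 zebrafish symbols. Of these, 44 symbols had a matching gene, which gave 45 Ensembl IDs among the 32520 in the count table, since *cth* had 2. The filter on low counts kept 43 of the 45 IDs among 19240 genes tested. No match by symbol was found for *slc3a2b*, *stc2a*, *gdf15* and *dnajb9b*, which are not analysed here. The members were divided into an amino acid response (23 tested), chaperones and degradation factors of the endoplasmic reticulum (ER) (14 tested) and stress sensors with their switches (6 tested).

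In both responses a form of stress is turned into a change of translation and transcription. Kinases that sense a lack of amino acids, a lack of heme, viral RNA or unfolded protein in the ER phosphorylate the initiation factor eIF2, which slows most protein synthesis but favours translation of the transcription factor ATF4. ATF4 then switches on genes for making, importing and charging amino acids. In the ER, the sensors PERK (encoded by *eif2ak3*), IRE1 (*ern1*) and ATF6 respond to unfolded protein, and the transcription factors XBP1 and ATF6 raise the chaperones of that compartment. Secretory tissues use this second pathway during normal development, and in zebrafish embryos *xbp1* is known for its expression in the hatching gland. Counts per gene measure neither the phosphorylation of eIF2, nor the translation of ATF4, nor the splicing of *xbp1* RNA by IRE1, so that these steps were not examined.

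Poly-A RNA of whole embryos at 72 hours post-fertilization (hpf) was sequenced in 3 *miR-34a-/-* and 3 wild-type libraries, each from pooled embryos (30 per pool by the study's methods, 30 to 50 by the labels). The mutants were homozygous for a CRISPR/Cas9 deletion allele of the microRNA gene *miR-34a* and lacked the maternal as well as the zygotic gene. All embryos were *casper*, a strain with little pigment, and the genotypes were bred as separate lines, so that the deletion and any other difference between the lines cannot be told apart. Whether the pools came from separate clutches is not stated in the sources used here, and p-values then measure the spread between these pools.

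Levels are given in CPM, the counts of a gene per 1000000 counts of its library, with library sizes multiplied by TMM factors (edgeR's trimmed mean method). Values of single libraries are listed in the order of replicates 1, 2 and 3. Total counts ran from 10507151 to 16369150 in the mutant libraries and from 10273343 to 15856562 in the wild-type libraries. The lowest count of any tested member in any library was 25. The *miR-34a* gene itself had 0 counts in all 6 libraries and could not serve to check the labels. Genotypes were compared gene by gene with the quasi-likelihood test of edgeR, and a gene was called when its p-value, adjusted over all 19240 genes, was under 0.05. *miR-34a-/-* replicate 1 stood apart from the other mutants. Without it the common biological coefficient of variation was 6.76%, against 10.9% with all libraries. That coefficient is not given here for the removal of any other library. The summed photoreceptor markers of mutant replicate 1 (15 gene IDs for 12 of 18 listed symbols, none at 0) were at 323 CPM, against 1348 and 1386 CPM in the other mutants and 583 to 1317 CPM in wild-type.

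Of the 43 tested members 3 were called, against a background of 2.60% of all genes called in either direction, and 1 of them, *atf3*, differed by more than 1.5-fold, against 1.88% of all genes. Of the 23 tested members of the amino acid response, 20 had a fitted log2 fold change above 0, against 48.1% of all genes tested, and their median was 0.24, where all genes had a median of -0.01. Members called higher numbered 2, *sesn2* and *atf3*, against a background of 1.33% of all genes called higher, and 0 were called lower, where the background was 1.27%. A further 11 had an unadjusted p under 0.05, so that 13 of 23 (56.5%) passed that mark in the higher direction, against 8.14% of all genes. None passed it in the lower direction, and the DESeq2 Wald, edgeR likelihood ratio and limma tests called 0 members lower as well. In 10 of the 23 (43.5%) each mutant library lay above each wild-type library, which held for 11.0% of all genes. These shares describe the list, which was chosen with earlier results of these data known, and carry no test of their own.

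*sesn2* (ENSDARG00000070012) codes for Sestrin 2, which in mammals senses leucine, restrains the growth regulator mTORC1 and is a target of p53 as well as of ATF4. It was at 19.1, 16.9 and 19.2 CPM in *miR-34a-/-* libraries, against 11.4, 12.5 and 13.6 CPM in wild-type libraries. The lowest mutant library was above the highest wild-type library. Its log2 fold change was 0.57 ± 0.12 (SE), a 1.48-fold rise, with an adjusted p of 0.034 in edgeR's quasi-likelihood test. In raw counts it had 173 to 298 in the mutant and 132 to 184 in the wild-type libraries.

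*atf3* (ENSDARG00000007823), a transcription factor that is induced early by many stresses and acts downstream of ATF4, was at 16.6, 21.3 and 24.2 CPM in *miR-34a-/-* libraries, against 11.0, 14.9 and 10.4 CPM in wild-type libraries. The groups did not overlap, although mutant replicate 1 lay close to wild-type replicate 2. The log2 fold change of 0.79 ± 0.17 (SE) corresponded to a 1.73-fold rise (edgeR adjusted p = 0.0444), with 187 to 376 counts in the mutant and 109 to 178 in the wild-type libraries. Both calls held without mutant replicate 1, at adjusted p-values of 0.00792 for *sesn2* and 0.000296 for *atf3*. In edgeR's fits without mutant replicate 2, mutant replicate 3 or wild-type replicate 1, 2 or 3, neither gene was called, with adjusted p-values from 0.0801 to 0.154 for *sesn2* and from 0.0536 to 0.210 for *atf3*.

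**Figure D1:**
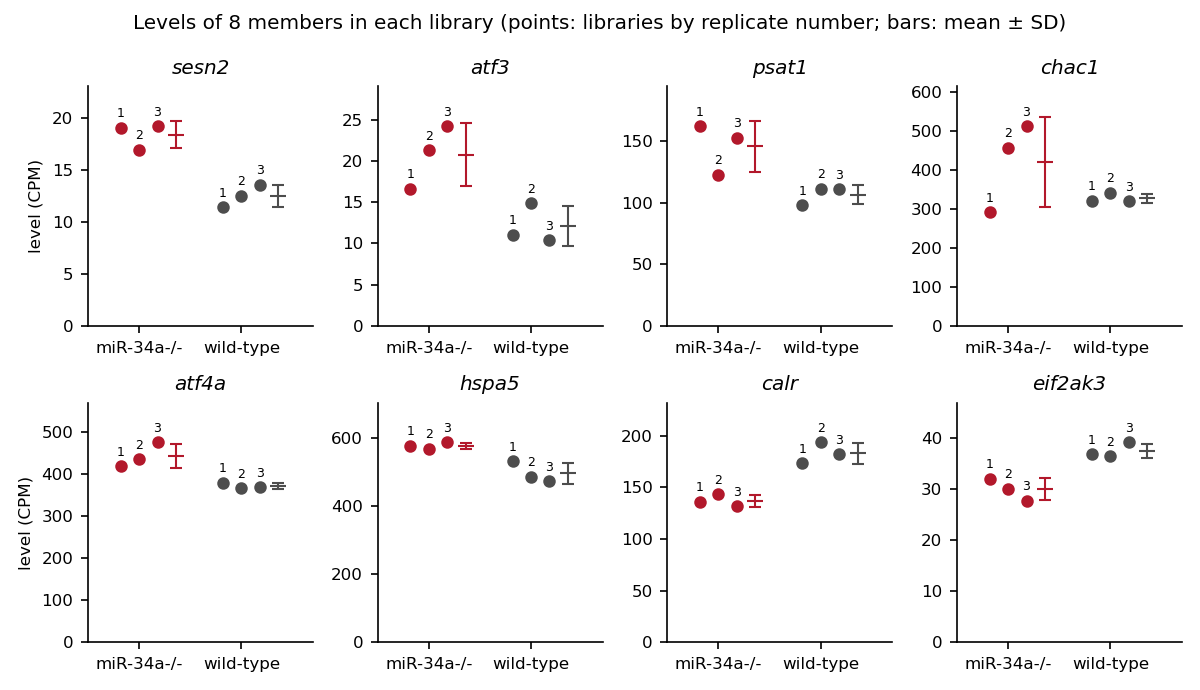
Levels of 8 members in CPM, with 1 point for each library (number: replicate) and the mean with its SD to the right of the points, *miR-34a-/-* left of wild-type in each panel, all axes starting at 0. The mutant points lie apart from the wild-type points in every panel but *chac1*, where mutant replicate 1 (292 CPM) is below all wild-type libraries while mutant replicates 2 and 3 (456 and 512 CPM) are above them.

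The transcription factors of the response were examined next. *atf4a* (ENSDARG00000111939) and *atf4b* (ENSDARG00000038141) are the zebrafish copies of the gene for ATF4. *atf4a* had 419, 436 and 475 CPM in *miR-34a-/-* libraries, against 379, 366 and 368 CPM in wild-type libraries. *atf4b* had 300.4, 308 and 319 CPM in the mutants and 266, 279 and 278 CPM in wild-type. In both copies the mutant libraries were all above the wild-type libraries, and the differences were small, with log2 fold changes of 0.26 ± 0.07 and 0.17 ± 0.06 (SE) and edgeR adjusted p-values of 0.101 and 0.227. Neither copy was called.

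*atf5a* and *atf5b* code for ATF5, a relative of ATF4 whose translation is controlled in a similar way. *atf5a* was at 27.8, 30.3 and 29.8 CPM in the mutants and 30.3, 21.3 and 22.1 CPM in wild-type, and wild-type replicate 1 reached the level of the highest mutant library. *atf5b* was at 34.1, 36.1 and 34.9 CPM in the mutants and 28.9, 31.2 and 30.7 CPM in wild-type, without overlap. Their log2 fold changes were 0.24 ± 0.13 and 0.21 ± 0.08 (SE), with edgeR adjusted p-values of 0.422 and 0.232. *cebpg*, which codes for a C/EBP protein that pairs with ATF4, was at 64.5, 65.5 and 71.0 CPM in the mutants and 54.7, 61.1 and 56.2 CPM in wild-type, again without overlap (0.23 ± 0.08, adjusted p = 0.181).

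*nupr1a* codes for a small nuclear protein that is raised by many stresses in mammals. It was at 45.3, 61.8 and 66.9 CPM in the mutants and 48.2, 46.9 and 48.0 CPM in wild-type. Mutant replicate 1 was under all 3 wild-type libraries, and mutant replicates 2 and 3 were above them (log2 fold change 0.28 ± 0.13 SE, edgeR adjusted p = 0.319). *ddit3*, the gene for the pro-apoptotic factor CHOP, was at 28.0, 28.0 and 23.0 CPM in the mutants and 27.2, 23.9 and 24.7 CPM in wild-type. The groups overlapped (log2 fold change 0.050 ± 0.11 SE, edgeR adjusted p = 0.865), so that no difference in this factor was seen at the spread of these pools. In 7 of these 8 regulators (*atf4a*, *atf4b*, *atf5a*, *atf5b*, *cebpg*, *nupr1a*, *atf3* and *ddit3*) mutant replicate 1 was the lowest of the mutants, as it was in 39.9% of all genes tested. *ddit3* was the exception.

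Enzymes that make serine and use it in one-carbon metabolism formed a second block. *psat1* (ENSDARG00000016733), the transaminase of serine synthesis, was at 162, 123 and 153 CPM in *miR-34a-/-* libraries, against 97.7, 111 and 111 CPM in wild-type libraries. Its groups did not overlap, and the log2 fold change of 0.45 ± 0.11 (SE) just missed the threshold, with an edgeR adjusted p of 0.0564. *psat1* was called in 5 of 13 alternatives. These were the DESeq2 Wald test (adjusted p = 0.00368), edgeR's likelihood ratio test (0.00574) and edgeR's fit without the filter on low counts (0.0182). The others were the fits without mutant replicate 1 (0.00965) or mutant replicate 2 (0.0245). It was not called with DESeq2 size factors (0.0567), limma (0.0657), a filter on mean counts (0.0782) or a replicate block (0.147). Nor was it called without mutant replicate 3 (0.108) or any wild-type library (0.181 to 0.227). *phgdh*, the first enzyme of that pathway, was at 188, 128 and 174 CPM in the mutants and 131, 135 and 128 CPM in wild-type. Mutant replicate 2 lay within the wild-type range there, and *phgdh* was called only in the fit that left that library out (log2 fold change 0.31 ± 0.12 SE, adjusted p = 0.254 with all libraries and 0.037 without it). *psph*, the last enzyme of serine synthesis, had overlapping groups, with 28.1, 28.6 and 31.5 CPM in the mutants and 27.9, 30.7 and 28.0 CPM in wild-type (0.031 ± 0.09, adjusted p = 0.901).

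In the mitochondrion, SHMT2 splits serine into glycine and a one-carbon unit, which MTHFD2 and ALDH1L2 oxidise further. *shmt2* was at 46.2, 44.1 and 45.3 CPM in the mutants and 39.8, 34.9 and 34.3 CPM in wild-type. *mthfd2* was at 60.9, 54.3 and 66.0 CPM in the mutants and 47.5, 47.7 and 50.0 CPM in wild-type. Neither overlapped between genotypes, with log2 fold changes of 0.31 ± 0.08 and 0.32 ± 0.08 (SE) and edgeR adjusted p-values of 0.0913 and 0.0878. *aldh1l2* was at 48.6, 35.2 and 32.0 CPM in the mutants and 32.2, 32.6 and 36.0 CPM in wild-type, and mutant replicate 1 alone stood out (0.20 ± 0.14, adjusted p = 0.545). Without that library its log2 fold change was 0.00049. Over the 6 serine and one-carbon enzymes the median log2 difference from the wild-type mean was 0.43, 0.12 and 0.36 in mutant replicates 1, 2 and 3, and between -0.04 and 0.01 in the wild-type libraries. Mutant replicate 2 was the lowest mutant in 4 of the 6, against 23.3% of all genes tested.

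*asns*, which makes asparagine and is a standard readout of ATF4, was at 48.7, 36.1 and 39.3 CPM in the mutants and 30.7, 33.5 and 34.2 CPM in wild-type. Mutant replicate 1 was the highest, and no mutant library overlapped wild-type (log2 fold change 0.34 ± 0.11 SE, edgeR adjusted p = 0.186). *trib3*, a pseudokinase that dampens ATF4, was at 38.2, 32.0 and 41.3 CPM in the mutants and 29.0, 29.9 and 33.6 CPM in wild-type, with mutant replicate 2 inside the wild-type range (0.28 ± 0.11, adjusted p = 0.263). *chac1*, which breaks down glutathione, was at 292, 456 and 512 CPM in *miR-34a-/-* libraries, against 321, 341 and 319.8 CPM in wild-type libraries. The mutant mean was 420.3 ± 114 CPM in *miR-34a-/-* and 327 ± 12.0 CPM in wild-type (SD, n = 3 each), so the mutant SD was larger than the difference between genotypes, and the log2 fold change of 0.36 ± 0.17 (SE) had an adjusted p of 0.336. Without mutant replicate 1 it was 0.57, with an adjusted p of 4.69e-05.

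The remaining members of the amino acid response had overlapping groups and adjusted p-values from 0.706 to 0.941. Log2 fold changes were -0.06 for *ddit4*, an inhibitor of mTORC1, 0.02 for the more highly counted copy of *cth*, an enzyme of cysteine synthesis, -0.04 for *slc7a11*, a cystine carrier, and 0.07 for *slc3a2a*, the heavy chain shared by several amino acid carriers. *slc7a5*, the carrier of large neutral amino acids that pairs with that heavy chain, was at 19.8, 11.6 and 5.80 CPM in the mutants and 15.3, 13.7 and 16.2 CPM in wild-type, a wider range among the mutants than between the genotypes (-0.31 ± 0.33 SE). Without mutant replicate 1 it was called lower (-0.85, edgeR adjusted p = 0.00939). Under the filter were the second *cth* ID (ENSDARG00000032206), with 1, 2 and 3 counts in the mutants and 3, 0 and 0 in wild-type, and *fgf21*, a hormone induced by ATF4 in mammals, with 6, 1 and 0 counts in the mutants and 7, 10 and 4 in wild-type.

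**Figure D2:**
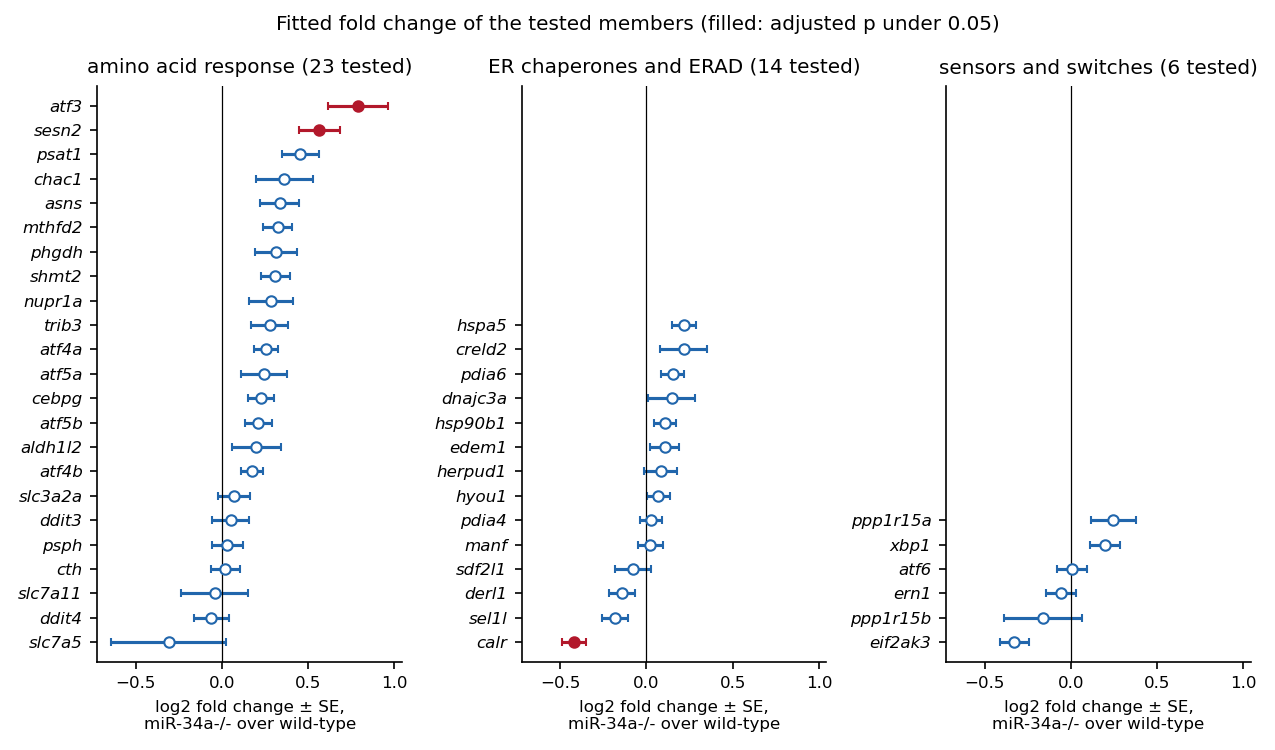
Fitted log2 fold change of *miR-34a-/-* over wild-type with its SE for the 43 tested members, in the amino acid response, the ER group and the sensors, filled where the adjusted p was under 0.05. In the amino acid response 20 of 23 points lie above 0, whereas in the ER group 10 of 14 do and the one called gene, *calr*, lies below it at -0.42.

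Summed over the 23 tested genes, the amino acid response took 2067, 2158 and 2375 CPM in the mutant libraries, against 1823, 1866 and 1833 CPM in wild-type, of which *atf4a*, *atf4b* and *chac1* were a large part. Genes of other tissues differed between these libraries too. The summed hemoglobin genes (9 gene IDs for 9 of 14 listed symbols, none at 0 in all libraries) were at 2059 to 2503 CPM in the mutants and 671 to 751 CPM in wild-type. *hbae3* made up most of the sum, at 1663 to 2078 CPM in the mutants and 520 to 602 CPM in wild-type. Of 7 tested, 6 were called higher, against 1.33% of all genes, and *hbbe3* overlapped. The part of these genes of other tissues in the values above was not tested. In whole-embryo RNA, more cells that use a gene and more of its RNA per cell cannot be told apart.

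The ER group showed small shifts in both directions. Of 14 tested members, 0 were called higher and 1, *calr*, was called lower, against backgrounds of 1.33% and 1.27%. At an unadjusted p under 0.05 there were 2 higher and 2 lower, against 8.14% and 7.20% of all genes, and the DESeq2 Wald, edgeR likelihood ratio and limma tests also called 0 higher. The median log2 fold change was 0.08. Mutant and wild-type libraries did not overlap in 3 genes that were higher (*hspa5*, *hsp90b1* and *pdia6*) and in 3 that were lower (*calr*, *derl1* and *sel1l*), against 11.0% and 10.2% of all genes.

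*calr* (ENSDARG00000076290) codes for calreticulin, a chaperone that binds calcium and the sugar chains of new glycoproteins. It was at 136, 144 and 132 CPM in *miR-34a-/-* libraries, against 174, 194 and 182 CPM in wild-type libraries. The highest mutant library was well under the lowest wild-type library, and the log2 fold change was -0.42 ± 0.07 (SE), or 0.748-fold, with an edgeR adjusted p of 0.0131. The call was lost without wild-type replicate 2 (adjusted p = 0.105) or wild-type replicate 3 (0.0855), and held without each of the other 4 libraries (0.00131 to 0.0489). Its relatives *calr3a* and *calr3b*, named here after their values were seen, were at 223, 231 and 228 CPM in the mutants and 235, 227 and 222 CPM in wild-type, and at 111, 83.4 and 80.0 CPM in the mutants and 97.1, 96.0 and 100.3 CPM in wild-type. Both had overlapping groups, with log2 fold changes of -0.0036 ± 0.06 and -0.099 ± 0.11 (SE), although *calr3b* was called lower without mutant replicate 1 (-0.26, adjusted p = 0.0203).

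*hspa5*, the gene for BiP, the main Hsp70 chaperone of the ER and the usual marker of its stress, was at 577, 568 and 587 CPM in *miR-34a-/-* libraries, against 532, 486 and 472 CPM in wild-type libraries. All mutant libraries were above all wild-type libraries by a small margin (log2 fold change 0.22 ± 0.07 SE, edgeR adjusted p = 0.162), and it was called without mutant replicate 1 (adjusted p = 0.0432). *hsp90b1*, which codes for the Hsp90 of the ER, was at 383, 359.7 and 373 CPM in the mutants and 354, 340.3 and 340.5 CPM in wild-type (0.11 ± 0.06, adjusted p = 0.456). *pdia6*, one of the disulfide isomerases, was at 68.0, 65.7 and 66.5 CPM in the mutants and 60.9, 58.2 and 61.0 CPM in wild-type (0.15 ± 0.07, adjusted p = 0.305). The genotypes were separate in both genes, by small margins.

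Among the further strong targets of ATF6 and XBP1 named in this paragraph, only *sdf2l1* had a fold change under 0. *creld2* was at 14.0, 12.1 and 14.4 CPM in the mutants and 10.5, 11.3 and 13.3 CPM in wild-type (log2 fold change 0.22 ± 0.13 SE). *sdf2l1*, which works with BiP, was at 37.4, 41.7 and 46.5 CPM in the mutants and 44.3, 48.7 and 39.6 CPM in wild-type (-0.075 ± 0.10). *manf*, a secreted ER protein, was at 38.8, 41.5 and 41.6 CPM in the mutants and 41.2, 39.6 and 39.3 CPM in wild-type (0.022 ± 0.07). In these 3 genes the genotypes overlapped, with edgeR adjusted p-values of 0.483, 0.775 and 0.918. *pdia4*, *hyou1* and the co-chaperone gene *dnajc3a* had log2 fold changes of 0.03, 0.07 and 0.15, likewise with overlap.

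ER-associated degradation removes proteins that fail to fold. *sel1l*, the scaffold of the HRD1 ubiquitin ligase, was at 43.5, 40.5 and 41.0 CPM in the mutants and 44.4, 48.7 and 48.8 CPM in wild-type (log2 fold change -0.18 ± 0.08 SE, edgeR adjusted p = 0.29). *derl1*, a channel component, was at 44.2, 47.8 and 48.6 CPM in the mutants and 49.3, 51.2 and 54.8 CPM in wild-type (-0.14 ± 0.08, adjusted p = 0.413). In both the mutant libraries lay under the wild-type libraries without a call. *herpud1* and *edem1*, which are induced by ER stress, had log2 fold changes of 0.08 and 0.11 with overlapping groups.

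The ER group summed to 1662, 1627 and 1669 CPM in the mutants, against 1609, 1578 and 1558 CPM in wild-type. Secretory tissues, which express these genes strongly, were described through summed marker lists. No matched marker was at 0 in all libraries, although *ela2l*, *hp* and *he1.3* had 1 count in 1 library and 0 in the others. Of the 13 gene IDs of the exocrine pancreas list, 7 passed the filter. The summed levels overlapped between genotypes for the exocrine pancreas (12 of 19 symbols matched, 25.8 to 63.3 CPM in the mutants and 29.9 to 51.2 in wild-type), liver (17 of 18, 8980 to 10573 and 9274 to 10194 CPM), hatching gland (6 of 7, 151 to 207 and 179 to 229 CPM) and cartilage and notochord (10 of 15, 3268 to 4011 and 3003 to 3752 CPM). Markers of goblet cells and intestine (7 of 8) summed to 673 to 740.2 CPM in the mutants and to 818 to 878 CPM in wild-type, without overlap. Single markers of these lists differed between genotypes, and those named here were chosen after their values were seen. In the hatching gland list *cd63* made up most of the sum, at 119 to 155 CPM in the mutants and 128 to 139 CPM in wild-type. *he1.1* lay lower in each mutant library without a call (-0.79 ± 0.22 SE, edgeR adjusted p = 0.105). It was at 23.9, 37.6 and 39.1 CPM in the mutants and 40.8, 70.0 and 64.8 CPM in wild-type. *ctslb*, under the filter, had 2, 7 and 3 counts in the mutants and 14, 15 and 9 in wild-type. *he1.2* (-0.60), *hce2l1* (0.79) and *cd63* (0.06) overlapped. Of the goblet and intestine list *fabp2*, an enterocyte fatty acid binding gene, was called lower (-0.70 ± 0.12 SE, edgeR adjusted p = 0.0126). *apoa4b.1*, the gene with the highest level in the list, lay lower in each mutant library than in any wild-type library without a call (-0.27 ± 0.07, adjusted p = 0.0764). *apoa4b.1* made up most of the sum, at 475 to 521 CPM in the mutants and 588 to 627 CPM in wild-type. The goblet markers *agr2*, *muc5.1* and *muc5.2* overlapped. The intestinal markers *cdx1b* and *vil1* went the other way without a call (0.33 ± 0.14 and 0.37 ± 0.22, adjusted p = 0.295 and 0.459). *cdx1b* was at 9.26, 11.6 and 11.0 CPM in the mutants and 8.31, 7.95 and 9.03 CPM in wild-type, without overlap. In liver *tfa*, the gene for transferrin (-0.37 ± 0.07, adjusted p = 0.0172), and *ahsg1* (-1.88 ± 0.34, adjusted p = 0.0185) were called lower. *ahsg1* had 8 to 10 counts per mutant library and 24 to 37 per wild-type library, and passed the filter on low counts through the wild-type libraries. Of the 15 liver markers tested, 9 had a fold change under 0 and 6 above it. The largest rises were in *uox* (1.07 ± 0.30, adjusted p = 0.117) and *fabp10a* (0.69 ± 0.25, adjusted p = 0.212), both with overlap. *apoa1b* and *apoa2* made up most of the liver sum, at 2985 to 3351 and 3250 to 4123 CPM in the mutants. In the exocrine pancreas the amylase gene *amy2al1* was called higher (3.18 ± 0.26, adjusted p = 0.000198). It had 59, 69 and 79 counts in the mutants and 10, 7 and 6 in wild-type, and passed the filter on low counts through the mutant libraries. Of the 7 exocrine markers tested, 5 had a fold change above 0 and 2 under it. Only *amy2al1* was called, and the other 6 overlapped. In edgeR's fits that left out 1 library, *fabp2* lost its call without wild-type replicate 1 or 2 (adjusted p = 0.0818 and 0.0868), *tfa* without mutant replicate 2 (0.116) or any wild-type library (0.0680 to 0.141), and *ahsg1* without mutant replicate 3 (0.0574) or any wild-type library (0.0610 to 0.102). The part of these tissues in the level of *calr* was not tested.

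The sensors and switches gave 0 calls among 6 genes, against a background of 2.60%. At an unadjusted p under 0.05 there were 1 higher (*xbp1*) and 1 lower (*eif2ak3*), against 8.14% and 7.20% of all genes, and edgeR's likelihood ratio test called *eif2ak3* lower, while the DESeq2 Wald and limma tests called 0. *eif2ak3*, the gene for the eIF2 kinase PERK, was at 32.0, 30.0 and 27.7 CPM in *miR-34a-/-* libraries, against 36.8, 36.3 and 39.1 CPM in wild-type libraries. The genotypes were separate (log2 fold change -0.33 ± 0.08 SE, edgeR adjusted p = 0.0876 with all libraries and 0.00939 without mutant replicate 1).

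*xbp1* was at 249, 263 and 300.5 CPM in *miR-34a-/-* libraries, against 253, 232 and 224 CPM in wild-type libraries. Mutant replicate 1 lay under the highest wild-type library (0.20 ± 0.09 SE, edgeR adjusted p = 0.318). *ern1* had 76.9, 88.2 and 76.5 CPM in the mutants and 76.0, 87.5 and 88.1 CPM in wild-type. *atf6* had 43.4, 40.6 and 40.2 CPM in the mutants and 37.7, 45.5 and 40.5 CPM in wild-type. Both overlapped widely, with log2 fold changes of -0.057 ± 0.09 and 0.0074 ± 0.09 (SE) and adjusted p-values of 0.797 and 0.978. Of the ER sensor genes, *eif2ak3* was thus the one with separate groups, at the lower RNA level in the mutants and without a call. In the 6 sensors and switches, 0 were higher and 1 was lower without overlap, against 11.0% and 10.2% of all genes.

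*ppp1r15a* and *ppp1r15b* code for the subunits that bring a phosphatase to eIF2 and so end the response, the first being induced by stress and the second constant in mammals. *ppp1r15a* was at 38.1, 51.3 and 55.4 CPM in the mutants and 37.3, 44.4 and 41.1 CPM in wild-type. As in *chac1* and *nupr1a*, mutant replicates 2 and 3 were above all wild-type libraries and mutant replicate 1 was not (0.25 ± 0.13 SE, edgeR adjusted p = 0.409 with all libraries and 0.00635 without that library). *ppp1r15b* was at 2.76, 2.44 and 2.26 CPM in the mutants and 2.48, 3.22 and 2.66 CPM in wild-type on 25 to 40 counts per library, and its groups overlapped (-0.16 ± 0.23 SE, adjusted p = 0.78).

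**Figure D3:**
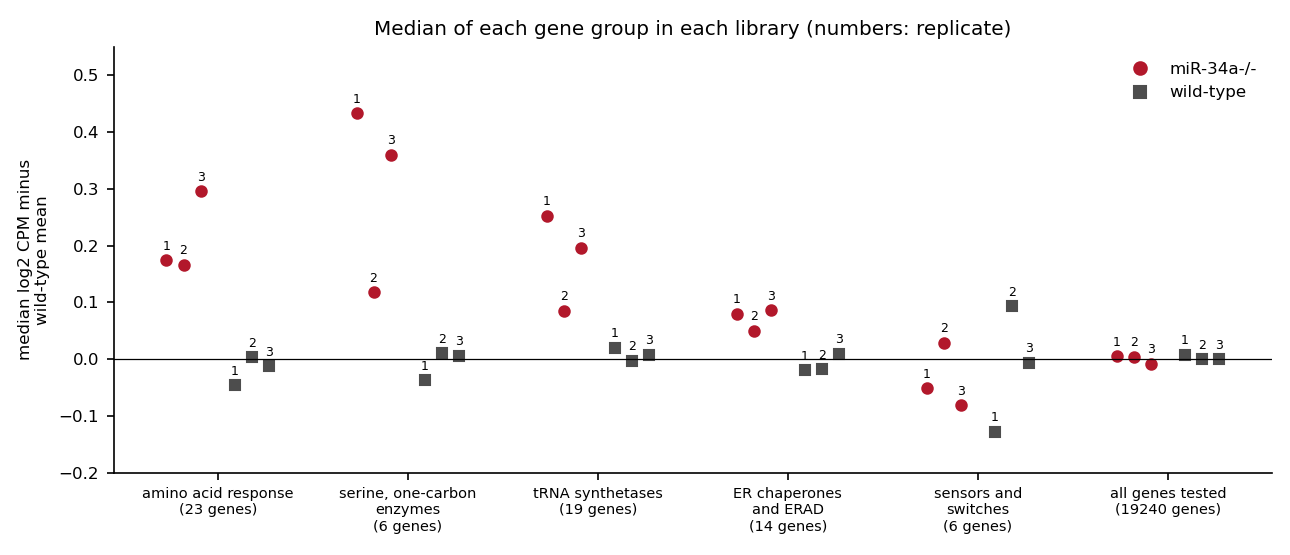
Median log2 CPM minus the wild-type mean in each library (circles *miR-34a-/-*, left; squares wild-type, right; numbers are replicates), for member groups, the tRNA synthetases and all genes tested. The amino acid response was at 0.17, 0.17 and 0.30 in the mutants and between -0.05 and 0.00 in wild-type, the ER group at 0.05 to 0.09 and -0.02 to 0.01, and the sensors overlapped.

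The order of the mutant pools differed between members. *chac1*, *nupr1a*, *ppp1r15a* and *atf3* were lowest in mutant replicate 1. *psat1*, *phgdh*, *asns*, *shmt2* and *mthfd2* were lowest in mutant replicate 2, in *shmt2* by a small margin (44.1 CPM against 46.2 and 45.3 CPM). Over the 23 amino acid response members, mutant replicate 1 was the lowest mutant in 12, replicate 2 in 8 and replicate 3 in 3. Over all genes tested, replicates 1, 2 and 3 were the lowest mutant in 39.9%, 23.3% and 36.9%. The median coefficient of variation of these 23 genes was 9.70% among the mutants and 6.30% among the wild-type libraries, and over all genes tested 12.0% and 8.57%. These groupings were noted after the values had been seen.

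Leaving out mutant replicate 1 raised the number of members called to 15, 12 higher and 3 lower, of which 3 were those called with all libraries. Over all genes 7.09% were then called higher and 8.46% lower. The 12 higher members were *atf3*, *sesn2*, *psat1*, *mthfd2*, *shmt2*, *atf4a*, *cebpg*, *nupr1a* and *chac1* in the amino acid response, *hspa5* in the ER group, and *xbp1* and *ppp1r15a* among the switches. The 3 lower members were *calr*, *eif2ak3* and *slc7a5*. The median log2 fold change was 0.23 in the amino acid response, 0.07 in the ER group and -0.03 in the sensors, close to the values with all libraries.

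**Figure D4:**
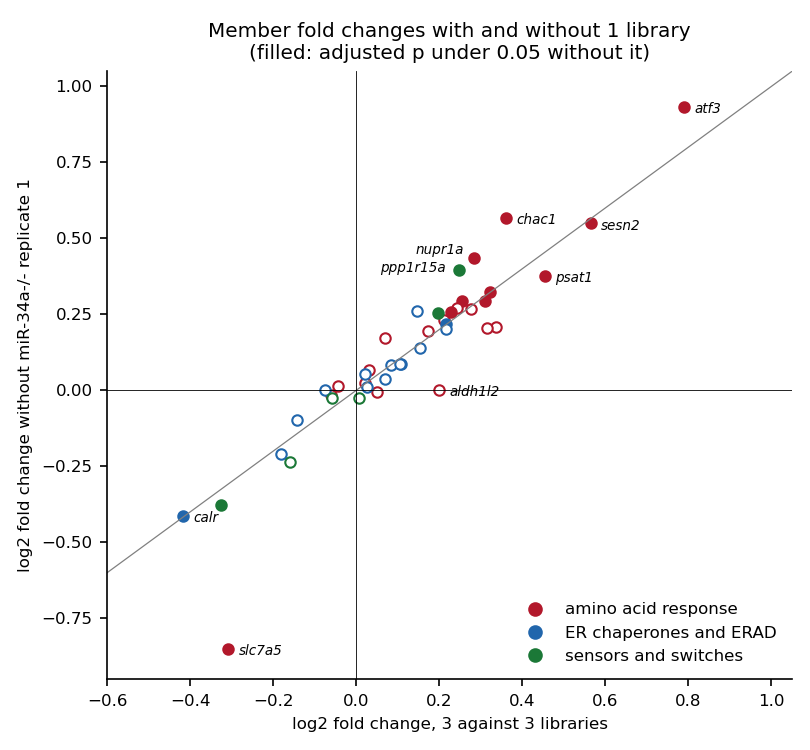
Log2 fold change of the 43 tested members with all 6 libraries (horizontal) and without *miR-34a-/-* replicate 1 (vertical), coloured by group and filled where the adjusted p was under 0.05 without that library, with names beside the points that moved most or lay farthest from 0 and the line of equal values. Most points lie near the line, *chac1* and *nupr1a* lie above it (0.36 and 0.57, 0.28 and 0.43), and *slc7a5* lies far under it (-0.31 and -0.85).

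Other genes of these pathways, 103 IDs for 102 of 121 listed symbols, were all tested, and 2 were called higher and 2 lower, near the backgrounds of 1.33% and 1.27%. The first list (10 tested) held the remaining eIF2 kinases, subunits of eIF2 and its exchange factor eIF2B, and *eif2a*, which codes for a separate initiation factor. Of the listed eIF2 subunits only *eif2s2* was matched, while *eif2s1a*, *eif2s1b* and *eif2s3* were not. In 6 of the 10 (60%) each mutant library lay above each wild-type library, against 11.0% of all genes. In 1 each lay below, against 10.2%. The list had 0 calls higher, 3 genes higher at an unadjusted p under 0.05 (against 8.14% of all genes), 0 higher by the DESeq2 Wald, likelihood ratio and limma tests, and 1 gene called lower (against 1.27%).

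That gene was *eif2ak2* (ENSDARG00000068729), which codes for PKR, the eIF2 kinase activated by double-stranded RNA. It was at 0.534, 0.391 and 0.258 CPM in *miR-34a-/-* libraries, against 2.85, 2.93 and 2.85 CPM in wild-type libraries, or 4 to 6 counts per mutant library and 30 to 46 per wild-type library. The groups were far apart, and the log2 fold change was -2.88 ± 0.32 (SE), 0.136-fold, with an edgeR adjusted p of 0.00119. It was called in each of the 12 alternatives that tested it, at adjusted p-values up to 0.0147. The other kinases were not called: *eif2ak1*, the heme-regulated kinase, was at 19.5, 19.1 and 18.8 CPM in the mutants and 16.9, 16.5 and 16.7 CPM in wild-type (0.19 ± 0.09 SE, adjusted p = 0.37), and *eif2ak4*, the kinase GCN2 that senses uncharged tRNA, was at 21.2, 16.2 and 17.0 CPM in the mutants and 20.6, 17.6 and 20.5 CPM in wild-type (-0.11 ± 0.13, adjusted p = 0.72). These 2 kinases are named outside the rule for named genes. In the same list *eif2b5*, the catalytic subunit of eIF2B, had the highest fold change (0.26 ± 0.08, adjusted p = 0.167).

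Cytosolic tRNA synthetases, which charge tRNAs with amino acids and include several ATF4 targets, also had mostly positive fold changes. Of 19 tested, 18 had a log2 fold change above 0, against 48.1% of all genes, and the median was 0.18. Of the 19, 1 was called higher and 0 were called lower, against 1.33% and 1.27% of all genes. At an unadjusted p under 0.05, 10 were higher (52.6%, against 8.14% of all genes) and 0 lower (against 7.20%). The other 3 tests called 0 lower. In 11 the genotypes did not overlap (57.9%, against 11.0%). This list too was chosen with earlier results of these data known, and its shares carry no test. Mutant replicate 2 was the lowest mutant in 17 of the 19 and mutant replicate 1 in 0, against 23.3% and 39.9% of all genes tested.

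*nars1*, the asparaginyl-tRNA synthetase, was called. It was at 159.6, 141 and 168 CPM in *miR-34a-/-* libraries, against 104, 120.1 and 118 CPM in wild-type libraries, without overlap (0.46 ± 0.09 SE, edgeR adjusted p = 0.0259). In edgeR's fits without mutant replicate 3 or wild-type replicate 1, 2 or 3 the call was lost, with adjusted p-values of 0.0544, 0.122, 0.0967 and 0.104. *iars1* (0.38 ± 0.09, adjusted p = 0.0516) and *aars1* (0.31 ± 0.08, adjusted p = 0.0695), named after their values were seen, were close to the threshold. The lowest fold change of the list was that of *wars1* (-0.18 ± 0.15, adjusted p = 0.616).

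A list of other amino acid enzymes and carriers (19 tested) also held *vldlr*, *eif4ebp1*, *xpot* and *nupr1b*, which are neither. The whole list had 0 calls, against 2.60% of all genes, and a median log2 fold change of 0.08. At an unadjusted p under 0.05, 5 were higher and 1 lower, against 8.14% and 7.20% of all genes. The DESeq2 Wald and likelihood ratio tests called 1 higher, *slc1a4*, and limma called 0. *slc1a4*, a carrier of small neutral amino acids, was at 128, 105 and 119 CPM in the mutants and 83.7, 89.4 and 102 CPM in wild-type (0.36 ± 0.10 SE, edgeR adjusted p = 0.1), the highest fold change of the list. The lowest was that of the cationic amino acid carrier gene *slc7a1a* (-0.41 ± 0.40, adjusted p = 0.666).

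Factors of ER translocation and folding (35 IDs tested) were centred near 0, at a median of -0.0036 on the log2 scale, and 1 was called higher and 1 lower, against 1.33% and 1.27% of all genes. *ssr4*, a subunit of the complex next to the translocon, was at 172, 171 and 197 CPM in *miR-34a-/-* libraries, against 135, 141 and 128 CPM in wild-type libraries (0.42 ± 0.08 SE, edgeR adjusted p = 0.0231). *dad1*, a subunit of the oligosaccharyltransferase, was at 102, 95.6 and 109.8 CPM in *miR-34a-/-* libraries, against 134, 136 and 132 CPM in wild-type libraries (-0.38 ± 0.07, adjusted p = 0.0214). Both were separate between genotypes and opposite in direction. *ssr4* lost its call without mutant replicate 2 (adjusted p = 0.0643) or any wild-type library (0.0924 to 0.15), and *dad1* without mutant replicate 2 (0.113) or any wild-type library (0.0919 to 0.130). Among 20 further genes of ER-associated degradation and ER-bound transcription factors, 0 were called, against 2.60% of all genes, and the median was -0.03. The DESeq2 Wald, likelihood ratio and limma tests called 0 as well. At an unadjusted p under 0.05, 1 was higher and 2 were lower, near the 8.14% and 7.20% of all genes. Fold changes ran from -0.35 ± 0.35 for *creb3l3a* to 0.51 ± 0.19 for *derl3* (SE, adjusted p = 0.676 and 0.251).

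**Figure D5:**
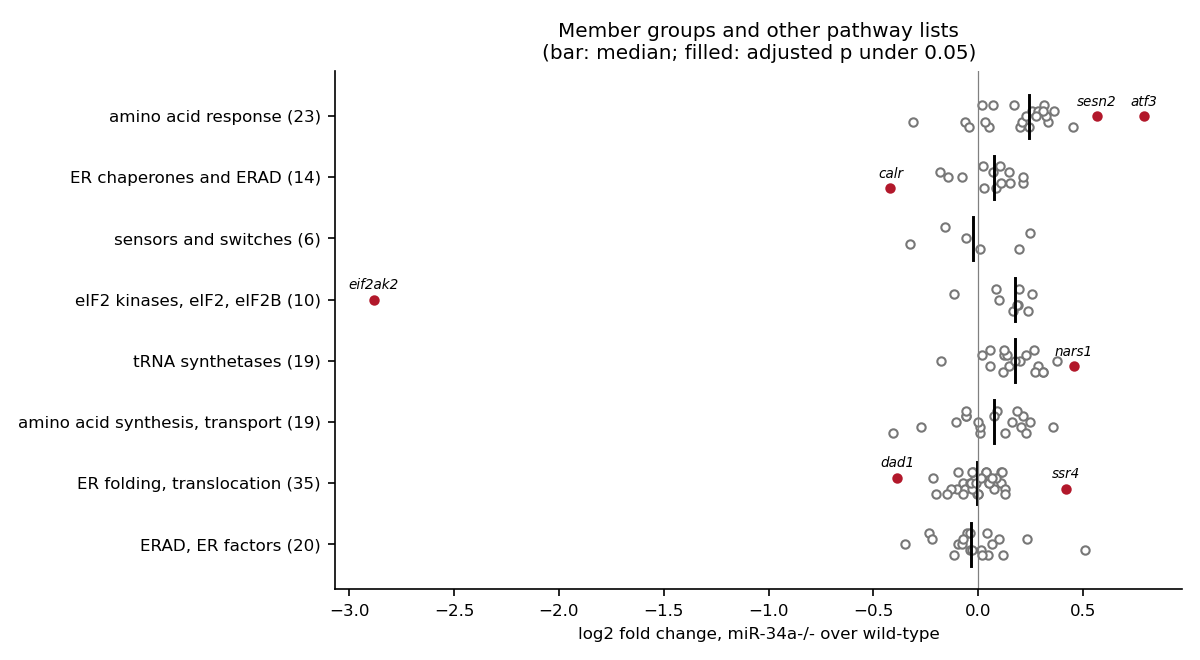
Fitted log2 fold change of *miR-34a-/-* over wild-type for each tested gene of the 3 member groups and the 5 other pathway lists (number tested in parentheses), with the median as a bar and genes with an adjusted p under 0.05 filled and named. The medians of the amino acid response (0.24), the eIF2 list (0.18) and the tRNA synthetases (0.18) lie above 0, those of the ER lists lie within 0.08 of it, and *eif2ak2* lies alone at -2.88.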

How the data were processed

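RNA-seq of whole zebrafish embryos gave 1 table of raw counts per Ensembl gene for 3 *miR-34a-/-* and 3 wild-type libraries. The counts deposited by the authors came from reads trimmed with Trim Galore 0.4.4 and aligned to danRer11 with STAR 2.7.8, per the submitters' processing notes and the study's methods. The counting mode, the use of strand and the annotation release are not given in the sources used here, so overlapping genes and close copies may share reads. Symbols came from a table of gene names that gave 29201 of the 32520 IDs a symbol.

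Counts were filtered with edgeR 4.0.16 (filterByExpr), which kept 19240 genes, scaled with TMM factors, and tested with the quasi-likelihood F-test over all genes without covariates, with Benjamini-Hochberg adjustment and a threshold of 0.05, in R 4.3.3. Log2 CPM used a prior count of 1. DESeq2 1.42.0 and limma 3.58.1, other filters and scaling, a block for the replicate number and the removal of single libraries were alternatives. An exact permutation test of 3 against 3 libraries cannot go below p = 0.1, and none is given. Values were given in full for members with an unadjusted p under 0.05, the sensors and switches, paralog pairs, and the highest levels and fold changes of each group. Pathway genes were named when called or at either end of their list. The members and lists were chosen with earlier results of these data known.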

Additional observations from a re-analysis of the deposited data

How the results depend on the processing

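Over the 43 tested members, 558 fold changes were computed under an alternative. Of these, 507 kept their direction and side of the threshold, 21 were newly past it, 16 were no longer past it and 14 changed sign, the last with adjusted p-values of 0.858 or more. The cause of these changes was not tested.

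Counts of called genes that moved by more than 1.5 times were as follows. The likelihood ratio test of edgeR called 971 genes (507 higher, 464 lower), against 500 (255 and 245) with the quasi-likelihood test, and 7 members (5 higher, 2 lower), against 3 (2 and 1), and 8 pathway genes (6 higher), against 4 (2 higher). The DESeq2 Wald test called 5 members (4 higher) and 7 pathway genes (5 higher), beside 558 of all genes (300 higher). Without a filter on low counts 4 pathway genes were called higher, beside 376 of all genes. With a filter at a mean of 50 counts, which kept fewer genes, 164 genes and 1 member were called higher, and 1 pathway gene was called lower, *eif2ak2* not being tested there. With the replicate number as a block, 238 genes (113 higher, 125 lower), 0 members (0 higher, 0 lower) and 1 pathway gene (0 higher, 1 lower) were called. The deviations of same-numbered libraries had correlations of -0.067, 0.0012 and -0.18 across genes. Whether libraries of the same number shared a clutch or batch is not stated in the sources used here and was not tested.

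Leaving out 1 library at a time gave 190 to 3022 genes (92 to 1377 higher, 96 to 1645 lower), 0 to 15 members (0 to 12 higher, 0 to 3 lower) and 1 to 19 pathway genes (0 to 12 higher, 1 to 7 lower). The highest of these counts came without mutant replicate 1, and 0 members were called without wild-type replicate 2 or 3. The median log2 fold change of the ER group ran from 0.027 to 0.10.

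Sign changes were looked for in the 43 tested members and in some of the other genes named above. Leaving out 1 library at a time turned the sign of the fold change in 11 genes, none of them called with all libraries. Of these, *slc7a1a* and *calr3a* were not members. Over all alternatives their log2 fold changes ran from -0.0042 to 0.14 for *ddit3*, -0.14 to 0.020 for *ddit4*, -0.024 to 0.075 for *psph*, -0.035 to 0.085 for *cth* and -0.13 to 0.097 for *slc7a11*. They ran from -0.85 to 0.062 for *slc7a5*, -0.013 to 0.26 for *dnajc3a*, -0.16 to 0.0028 for *sdf2l1*, -0.057 to 0.083 for *atf6*, -1.04 to 0.0060 for *slc7a1a* and -0.022 to 0.020 for *calr3a*. The sign also turned for *atf6* under the filter at a mean of 50 counts (-6.5e-05) and for *calr3a* with DESeq2 size factors (0.00016). *ppp1r15b*, with 25 to 40 counts per library, was not tested under that filter. Depth limits such genes, and *eif2ak2* with 4 to 6 counts per mutant library.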

Other observations

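Among the mutant pools, replicates 1 and 3 lay at opposite ends for some genes of amino acid transport and metabolism, which were picked after their values had been seen. *slc7a5* was at 19.8, 11.6 and 5.80 CPM in the mutants and 15.3, 13.7 and 16.2 CPM in wild-type. *slc7a1a*, a carrier of arginine and lysine, was at 4.81, 2.54 and 1.22 CPM in the mutants and 3.60, 3.50 and 3.99 CPM in wild-type. In both carriers mutant replicate 1 was above and mutant replicate 3 under all wild-type libraries. *aldh1l2*, with 48.6, 35.2 and 32.0 CPM in the mutants and 32.2, 32.6 and 36.0 CPM in wild-type, had its highest level in mutant replicate 1 and its lowest in mutant replicate 3 as well. None of the 3 genes was called with all libraries.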
